A study of Homo sapiens with 3 samples.

Results

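The HOX cluster genes were the 33 genes whose symbols name a HOX gene of cluster A, B, C or D, out of 29689 genes with an expression value. The rule for membership used the symbol alone and no measured value, but it was set with earlier results of these data known. The annotation of the human genome holds 39 such genes, and HOXB1, HOXB2, HOXB3, HOXB5, HOXB7 and HOXD4 were not analysed here. RNA had been sequenced from tumors that the TNBC (triple-negative breast cancer) cell line SUM-149 had formed in the mammary fat pads of female Nu/Nu mice after injection with Matrigel. The vehicle tumor came from a mock-treated host, the CDK2i tumor from a host given the CDK2 inhibitor dinaciclib for 10 days, and the EZH2i tumor from a host given the EZH2 inhibitor EPZ6438 for 10 days. The legend of the study names GSK343 as the EZH2i of SUM-149 xenografts, so the identity of that compound carries a doubt. All tumors derive from the same line, the hosts keep their own blood vessels and stroma, and nude mice lack T cells. Each condition had 1 library, so no value below has a replicate, no p-value was computed, and differences between libraries cannot be told apart from differences between conditions.

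HOX genes encode homeodomain transcription factors that give cells their position along the body axis. They sit in 4 clusters in which the order of the genes follows the order of their activity, from the anterior paralog groups with low numbers to the posterior groups with high numbers. The clusters are classical targets of Polycomb: EZH2, the catalytic subunit of PRC2, places the repressive mark H3K27me3 over silent HOX genes, and trithorax proteins counter it. Several HOX genes take part in mammary gland development and are often altered in breast cancer.

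The HOX clusters lie on GRCh37, the build of the deposited files, on chromosome 7 (HOXA), chromosome 17 from 46605888 to 46806112 (HOXB), chromosome 12 from 54332615 to 54449814 (HOXC) and chromosome 2 from 176957449 to 177055635 (HOXD). Of the 33 genes, 18 had a promoter window in the RefSeq table, which runs from 250 bases before to 50 bases after each start. The 18 genes gave 24 distinct windows, 7 of them of HOXA3. Only 4 of the 12 HOX genes that passed 1 FPKM in these tumors (HOXA9, HOXA10, HOXA11 and HOXC4) had a window, so the shares below do not describe the active HOX genes. A CCAAT box, searched as CCAAT or its reverse complement ATTGG, stood in 15 of the 24 windows (62.5%), against 34.6% of all 35116 windows in the table. A TATA box, searched as TATAAA or its reverse complement TTTATA, stood in 5 (20.8%), against 11.5% of all windows. The windows held a median of 23 CpG (range 0 to 44), against 14 over all windows. A match is a description of letters and says nothing of a factor bound there. The 250 bases before the start are printed 5′ to 3′ for HOXA10, HOXA11, HOXC4, HOXC5 and HOXD13, because these genes carried contrasting values below or share a start. HOXA10 has 2 starts in the table, and the stretch before the upstream one is printed, which lies within the annotated HOXA10 gene. The RefSeq table is on GRCh38.p14, and each printed stretch was found once on its GRCh37 chromosome. They lie at chr7:27219481-27219730 (minus strand) for HOXA10, chr7:27224852-27225101 (minus strand) for HOXA11, chr12:54410422-54410671 (plus strand) for both HOXC4 and HOXC5, and chr2:176957199-176957448 (plus strand) for HOXD13. Capitals mark the CCAAT and TATA boxes on either strand, and in HOXD13 the 2 orientations of the TATA box overlap.
HOXA10: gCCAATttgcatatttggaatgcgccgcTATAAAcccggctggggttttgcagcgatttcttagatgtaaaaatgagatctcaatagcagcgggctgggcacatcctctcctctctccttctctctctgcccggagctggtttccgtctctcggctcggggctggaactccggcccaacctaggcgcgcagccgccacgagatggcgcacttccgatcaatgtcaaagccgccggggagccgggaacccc
HOXA11: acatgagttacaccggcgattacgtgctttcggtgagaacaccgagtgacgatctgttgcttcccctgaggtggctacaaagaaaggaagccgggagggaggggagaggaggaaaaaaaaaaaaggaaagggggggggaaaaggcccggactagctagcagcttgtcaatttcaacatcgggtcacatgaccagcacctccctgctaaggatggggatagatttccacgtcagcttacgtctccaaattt
HOXC4 and HOXC5: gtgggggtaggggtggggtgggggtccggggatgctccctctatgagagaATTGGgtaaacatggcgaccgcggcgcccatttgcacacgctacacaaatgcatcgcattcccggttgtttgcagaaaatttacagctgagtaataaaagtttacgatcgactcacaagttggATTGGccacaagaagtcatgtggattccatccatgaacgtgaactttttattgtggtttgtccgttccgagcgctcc
HOXD13: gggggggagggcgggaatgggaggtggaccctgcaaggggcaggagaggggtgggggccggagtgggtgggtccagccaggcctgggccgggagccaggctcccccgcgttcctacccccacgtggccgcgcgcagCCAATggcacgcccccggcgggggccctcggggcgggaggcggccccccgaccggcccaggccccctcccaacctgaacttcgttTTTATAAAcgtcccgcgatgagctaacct
The HOXA11 stretch held neither motif. Its 300-base window shared 275 bases with the window of HOXA11-AS, the antisense RNA that starts head to head with it. HOXC4 and HOXC5 had the same window, so transcripts from that start begin alike.

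Depth and purity set how far the values can be read. From the steps that 1 fragment makes in weakly expressed genes, the libraries held about 16.8 M (vehicle), 19.1 M (CDK2i) and 17.5 M (EZH2i) fragments, where M stands for 1000000. The intervals given below are 95% intervals for counting error only, and are approximate because the gene lengths the authors used are unknown. Where 3 values follow one another below, they stand in the order vehicle, CDK2i, EZH2i. The tumors carried epithelial markers, with EPCAM at 66.3, 74.0 and 81.0 FPKM and the basal keratin KRT14 at 2458, 6269 and 2541 FPKM. KRT18, which the paper uses as a luminal marker, had 29.6, 42.1 and 35.1 FPKM, and KRT8 had 169, 200 and 121 FPKM. FPKM is the number of fragments per kilobase of gene and M fragments, so it allows levels of different genes to be compared. Summed over the 8 epithelial markers the level was 6485, 15443 and 6212 FPKM. The higher CDK2i sum came mostly from KRT5, KRT6A, KRT14 and KRT17, at 2.25 to 2.55 times vehicle. EPCAM, CDH1, KRT8 and KRT18 were at 1.11 to 1.42 times vehicle. The 10 fibroblast markers summed to 25.3, 39.6 and 31.1 FPKM and THY1 was listed at 0 in all tumors, the 4 endothelial markers summed to 0.734 to 0.927 FPKM, and the 6 macrophage markers summed to 11.5, 11.1 and 5.30 FPKM, nearly all of it CD14 and ITGAM. The part of these cell type markers in the HOX values was not tested, and mouse fragments that align to the human genome can add to any of them.

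Of the 33 HOX genes measured, mostly HOXC genes and posterior groups were active in these tumors. The genes not analysed, HOXB1, HOXB2, HOXB3, HOXB5, HOXB7 and HOXD4, lie outside HOXC and outside groups 9 to 13. The shares of HOXC and of groups 9 to 13 could thus be lower with them, by an unknown amount. HOXC genes carried 83.2%, 87.3% and 81.8% of the summed HOX level. HOXA genes carried 14.2%, 11.1% and 16.9%, HOXD genes at most 2.63%, and the 5 HOXB genes measured at most 0.172%. By paralog group, groups 9 to 13, which pattern the posterior body, held 80.3%, 81.8% and 75.5% of the sum. In all, 12 of 33 genes passed 1 FPKM in at least 1 tumor, 8 of 9 in HOXC and 4 of 11 in HOXA.

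**Figure D1:**
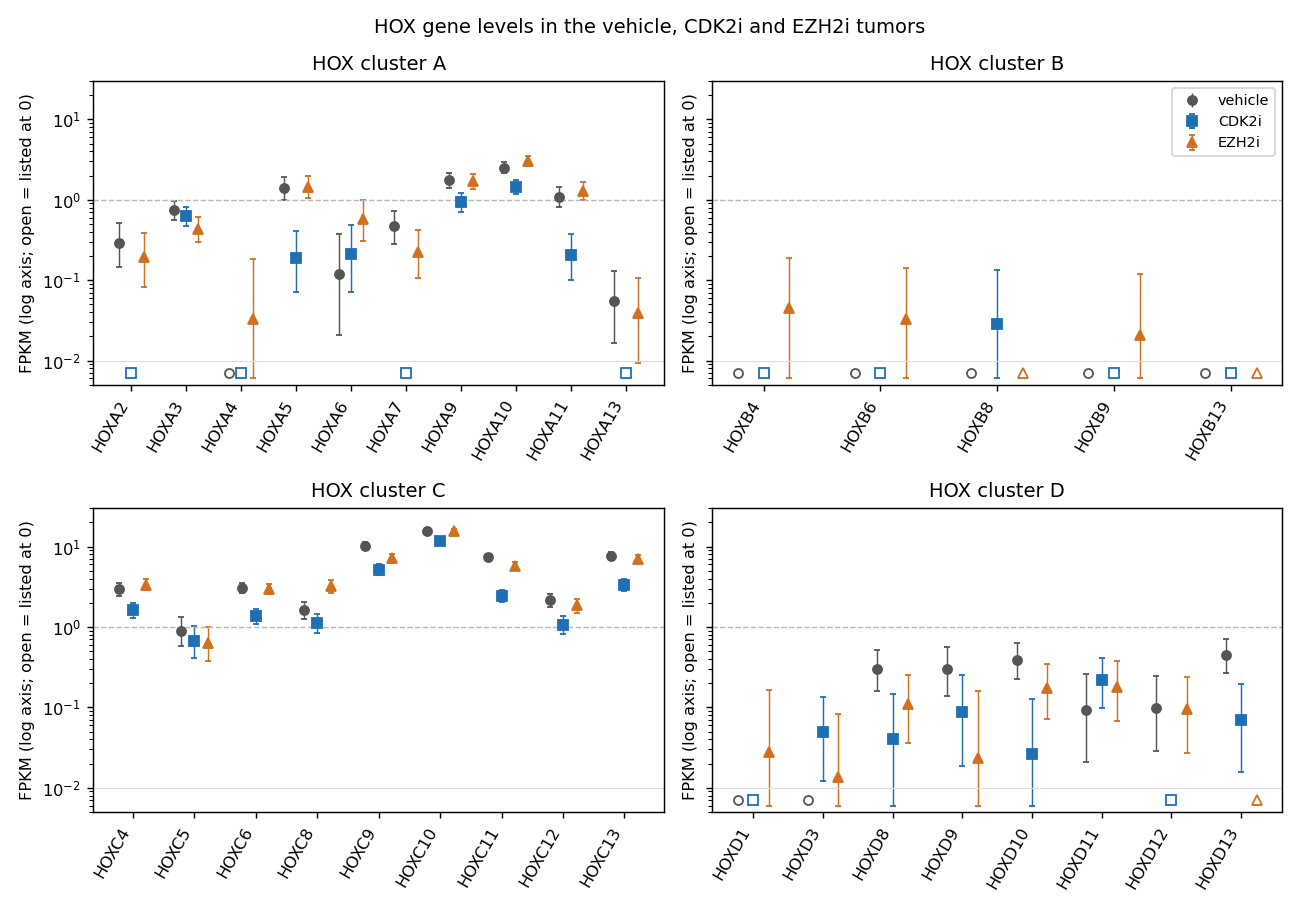
Level of 32 HOX genes in FPKM (log axis) in the vehicle, CDK2i and EZH2i tumors, 1 library each, by cluster and paralog group. Bars are 95% Poisson intervals of the estimated fragment number (lower ends below the axis are clipped), and open marks stand for genes listed at 0. The dashed line marks 1 FPKM, which no HOXB or HOXD gene drawn here passed.

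The posterior HOXC genes were the most abundant of the genes measured. HOXC10, a posterior factor known from limb and spinal cord patterning, ranked first in every tumor with 15.6, 11.6 and 15.5 FPKM. HOXC9, its neighbour toward the anterior side, followed with 10.2, 5.13 and 7.12 FPKM. HOXC13, the regulator of hair and nail keratins, reached 7.63, 3.32 and 7.05 FPKM. These genes and HOXC11 kept the first 4 ranks in each tumor. HOXC11 stood at 7.42, 2.42 and 5.78 FPKM, and in every tumor its interval overlapped that of HOXC13. In EZH2i the interval of HOXC9 overlapped both. The order of these genes in those tumors does not pass counting error. HOXC12 was lower, with 2.14, 1.07 and 1.85 FPKM.

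The central HOXC genes formed a second tier. HOXC6, a gene expressed in the developing mammary gland, had 3.08, 1.35 and 2.99 FPKM. HOXC4 had 2.93, 1.63 and 3.36 FPKM. HOXC8, which patterns the thoracic skeleton, had 1.61, 1.12 and 3.20 FPKM, and was the 1 gene of this tier that stood highest in EZH2i beyond counting error. HOXC5 stayed under 1 FPKM with 0.891, 0.666 and 0.632, and 67.3% of its annotated exon bases are shared with other transcripts of the same strand, so its fragments cannot be assigned to it alone.

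In HOXA 4 genes passed 1 FPKM, and HOXA10 was the highest. HOXA10, which shapes the uterus and promotes p53 expression in breast cells, had 2.51, 1.44 and 3.03 FPKM. HOXA9, known for its part in leukemia, had 1.74, 0.938 and 1.69 FPKM. HOXA5, which activates p53 in breast cells and is often silenced by methylation in breast cancer, had 1.40, 0.189 and 1.45 FPKM. The CDK2i value of HOXA5 rests on about 6.20 fragments against 40.5 in vehicle. HOXA11, a limb and uterus patterning gene, had 1.09, 0.205 and 1.29 FPKM. Opposite-strand exons of HOXA11-AS cover 27.2% of the HOXA11 exon bases, and no source used here says that fragments were counted by strand.

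The remaining 21 genes stayed under 1 FPKM in all tumors, where 1 fragment weighs heavily. HOXA2, a gene of hindbrain patterning, had 0.288, 0 and 0.193 FPKM, and HOXA7 had 0.472, 0 and 0.226 FPKM. Both were thus at 0 in the CDK2i tumor. The vehicle values were 4.29 times (HOXA2) and 7.26 times (HOXA7) the level that 3 fragments make in the CDK2i library. These are not lower bounds, because they leave out counting error in vehicle. The vehicle intervals, 0.146 to 0.512 FPKM for HOXA2 and 0.284 to 0.736 for HOXA7, lay above the upper CDK2i limits of 0.0826 and 0.0799 FPKM. Antisense exons cover 62.5% of HOXA7. HOXA3 had 0.748, 0.625 and 0.437 FPKM, HOXA6 had 0.120, 0.211 and 0.577 FPKM, and HOXA13 stayed at or under 0.0544 FPKM. Of the HOXD genes measured, the highest value was that of HOXD13, the digit gene, with 0.452, 0.0700 and 0 FPKM. Its vehicle value was 6.38 times the level of 3 fragments in the EZH2i library. Its vehicle interval, 0.270 to 0.712 FPKM, lay above the upper EZH2i limit of 0.0871 FPKM. HOXD8, HOXD9 and HOXD10, which pattern the limb and trunk, ranged from 0.296 to 0.389 FPKM in vehicle, 0.0263 to 0.0864 in CDK2i and 0.0236 to 0.172 in EZH2i. HOXD11 and HOXD12 stayed at or under 0.216 FPKM. HOXA4, HOXB4, HOXB6, HOXB8, HOXB9, HOXD1 and HOXD3 never passed 0.0496 FPKM, and HOXB13, a prostate gene measured in breast cancer prognosis, was listed at 0 in all tumors.

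The CDK2i tumor had the lowest HOX level. The summed HOX level was 61.8, 32.4 and 58.0 FPKM, a CDK2i to vehicle ratio of 0.524 (95% interval 0.492 to 0.558). The ratio was 0.412 (0.350 to 0.485) for HOXA, 0.550 (0.513 to 0.589) for HOXC and 0.300 (0.176 to 0.494) for HOXD, so every cluster with a level to compare was lower. By position it was 0.493 for groups 1 to 3, 0.484 for groups 4 to 8 and 0.534 for groups 9 to 13, with intervals that overlap. In bulk tumors, fewer cells of a type and less RNA per cell cannot be told apart. When each library was instead scaled to its median gene, its summed FPKM or its upper quartile, the HOXC ratio was 0.609 to 0.632.

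**Figure D2:**
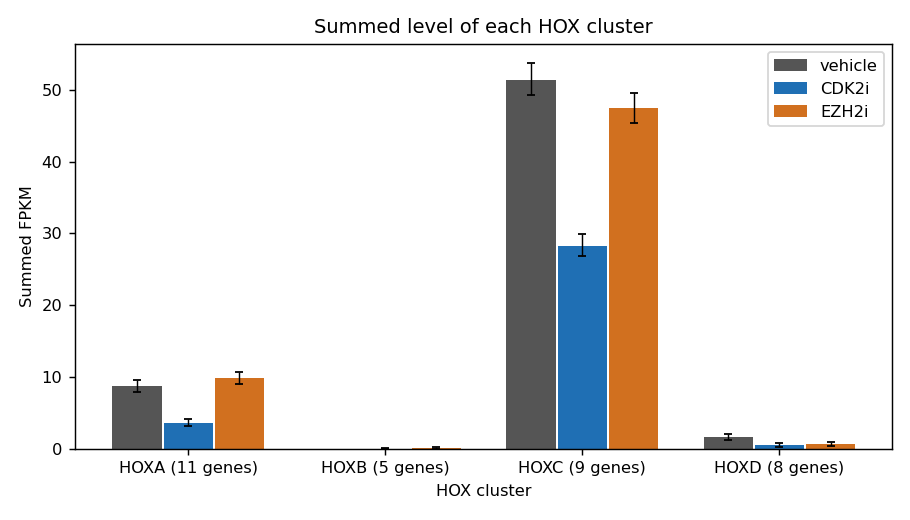
Summed FPKM of the HOX genes of each cluster (bars, from 0) in the vehicle, CDK2i and EZH2i tumors, 1 library each, with 95% Poisson intervals for counting error. HOXC is the tallest group in each tumor, and its CDK2i bar (28.3 FPKM) stands below the vehicle bar (51.4 FPKM) and the EZH2i bar (47.4 FPKM).

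A gene was counted as different where the fold, on log2(FPKM + 0.1), was above 2 and the higher of both values was above 1 FPKM. By this rule 5 of 33 HOX genes were lower in CDK2i than in vehicle, HOXA5, HOXA11, HOXC6, HOXC11 and HOXC13, against a background of 7.06% of all genes. None was higher, against 2.47% of all genes. Because low genes cannot meet the rule, the count is better read among genes of like level. Of the 12 HOX genes whose higher value lay between 1 and 16 FPKM, a range set by HOXC10, 5 were lower (41.7%), against 18.7% of the 10006 genes in that range, and 0 were higher, against 5.78%. The count depends on the processing: it was 3 after centring on the median gene, where HOXC6 and HOXC13 lost the call at −0.94 and −0.98, and 2 with a pseudocount of 1. These genes adjoin one another in 2 clusters and are not independent. The study's expression minimum of log2 FPKM 3 in the higher sample was met by HOXC9 and HOXC10 alone, and neither passed the fold, against 1.78% of all genes lower and 0.724% higher.

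The size of the difference from vehicle varied within the clusters. HOXA5 was 7.41-fold lower in CDK2i (CDK2i to vehicle ratio 0.135, interval 0.0478 to 0.316), a difference of −2.38 on log2(FPKM + 0.1), and HOXA11 was 5.32-fold lower (ratio 0.188, 0.0864 to 0.371), a difference of −1.97. In the same cluster HOXA9 and HOXA10 were 1.85-fold and 1.74-fold lower. The intervals of their ratios, 0.379 to 0.766 and 0.442 to 0.741, lay above those of HOXA5 and HOXA11, so HOXA genes differed among themselves by more than counting error. In HOXC, HOXC11 was 3.07-fold lower (ratio 0.326, 0.269 to 0.394), HOXC13 was 2.30-fold lower and HOXC6 was 2.28-fold lower. HOXC10, the most abundant, was 1.35-fold lower (ratio 0.743, 0.660 to 0.836), an interval apart from that of HOXC11 although the genes are neighbours. HOXC8 was 1.44-fold lower with a ratio interval of 0.472 to 1.02, the 1 interval of these 12 genes that reached 1. All 11 HOX genes with a mean above 1 FPKM were lower in CDK2i, as were 59.3% of all genes of that level. Over the 33 genes the median difference was −0.81, against −0.04 over all genes and −0.14 over all genes with a mean above 1 FPKM. That HOX median was −0.32 with a pseudocount of 1 and −0.52 with the GC and length trend removed.

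**Figure D3:**
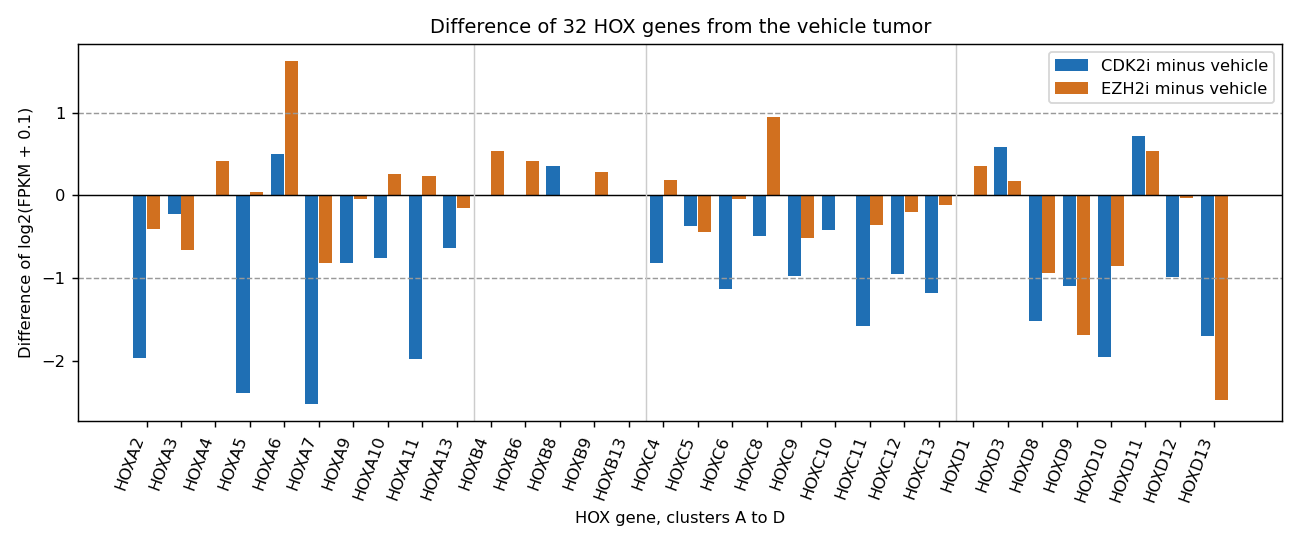
Difference of log2(FPKM + 0.1) from the vehicle tumor for 32 HOX genes in the CDK2i and EZH2i tumors (1 library each, the same vehicle library in both), with vertical lines between clusters A to D and dashed lines at a fold of 2. Of the 32 genes drawn, CDK2i bars point down for 22 and up for 4, and EZH2i bars point down for 17 and up for 13.

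In the EZH2i tumor the summed HOX level stayed near that of vehicle, while single abundant genes differed, as given further below. The EZH2i to vehicle ratio of the summed HOX level was 0.938 (0.888 to 0.990). For HOXA it was 1.12 (0.986 to 1.28) and for HOXC 0.922 (0.868 to 0.980), but the direction of both turned with the scaling between libraries, with 0.942 to 1.33 for HOXA and 0.773 to 1.09 for HOXC. HOXD was lower, with a ratio of 0.380 (0.232 to 0.608) from about 65 fragments in vehicle and 26 in EZH2i. No HOX gene was called higher, against 6.73% of all genes, and none lower, against 2.97%. Among genes with a higher value between 1 and 16 FPKM the backgrounds were 16.8% and 6.47%. At the expression minimum of log2 FPKM 3 none was called either, against 2.16% of all genes higher and 1.10% lower. With the libraries at equal summed FPKM, 2 HOX genes were called higher by the minimum of 1 FPKM. The share of all genes at that scaling is not given here. The median difference over the 33 genes was −0.01 (−0.19 to 0.19 over the other scalings), against 0.02 over all genes and 0.21 over all genes with a mean above 1 FPKM.

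At the deposited scaling, single HOX genes in EZH2i differed from vehicle by more than counting error. Other scalings shifted the EZH2i log2 values by −0.25 to 0.24, and the single genes were not recomputed under them. Intervals that lie near 1 or hold 1 may thus change sides. HOXC8 was 1.99 times the vehicle level (1.47 to 2.72), a difference of 0.95 just inside the fold of 2. Below 1 FPKM, HOXA6 was 4.79 times (1.23 to 30.7) the vehicle level, from about 2.60 fragments in vehicle and 13 in EZH2i. In the other direction HOXC9 stood at 0.699 (0.582 to 0.839), HOXC11 at 0.779 (0.671 to 0.902) and HOXA3 at 0.584 (0.367 to 0.917) of vehicle. Opposite-strand exons cover 39.3% of the HOXA6 and 17.3% of the HOXA3 exon bases. Antisense fragments can enter both values if counting was not by strand. HOXD9 stood at 0.0798 of vehicle, with an interval of 0.000726 to 0.680 that reflects about 9.30 fragments against 0.800. HOXC10, HOXC6 and HOXA9 had ratios of 0.994, 0.971 and 0.974, with intervals that hold 1.

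Genes listed at 0 bear on the question of silent HOX genes that come on. Of the 8 HOX genes at 0 in vehicle, 6 were above 0 in EZH2i (75%, against 44.2% of all genes at 0 in vehicle) and 2 in CDK2i (25%, against 51.5%). The 6 reached at most 0.0456 FPKM, the level of about 1.60 fragments, so these counts rest on single fragments. Of the 7 HOX genes between 0.25 and 0.5 FPKM in vehicle, 3 were at 0 in CDK2i, against 18.4% of all such genes, and 1 in EZH2i, against 12.2%. In the wider range of 0.05 to 1 FPKM the shares were 5 of 13 (38.5%, against 23.4%) in CDK2i and 1 of 13 (7.69%, against 19.1%) in EZH2i, so the EZH2i share turned from above to below its background.

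The EZH2i and CDK2i tumors were also compared directly, which leaves out the vehicle library that the comparisons above share. The summed HOX level in EZH2i was 1.79 times that in CDK2i (1.68 to 1.91), with 2.72 (2.33 to 3.20) for HOXA, 1.68 (1.56 to 1.80) for HOXC and 1.27 (0.691 to 2.35) for HOXD. In EZH2i 7 of 33 HOX genes were called higher than in CDK2i, HOXA5, HOXA10, HOXA11, HOXC6, HOXC8, HOXC11 and HOXC13. The background was 13.4% of all genes, and no HOX gene was lower, against 3.67%. Of the 12 HOX genes with a higher value between 1 and 16 FPKM, 7 were higher (58.3%), against 34.3% of all such genes, and 0 lower, against 7.17%. Most of these calls ended under other settings, with 3 left when each library was centred on its median gene or brought to equal upper quartile, and 1 with a pseudocount of 1. At the minimum of log2 FPKM 3 no HOX gene was called, against 4.32% of all genes higher and 1.62% lower. HOXA5 was 7.65 times (3.29 to 21.5), HOXA11 6.31 times (3.25 to 13.6) and HOXC8 2.87 times (2.07 to 4.03) the CDK2i level. HOXC10 and HOXC9 differed least of the abundant genes, at 1.34 times (1.19 to 1.5) and 1.39 times (1.12 to 1.71).

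**Figure D4:**
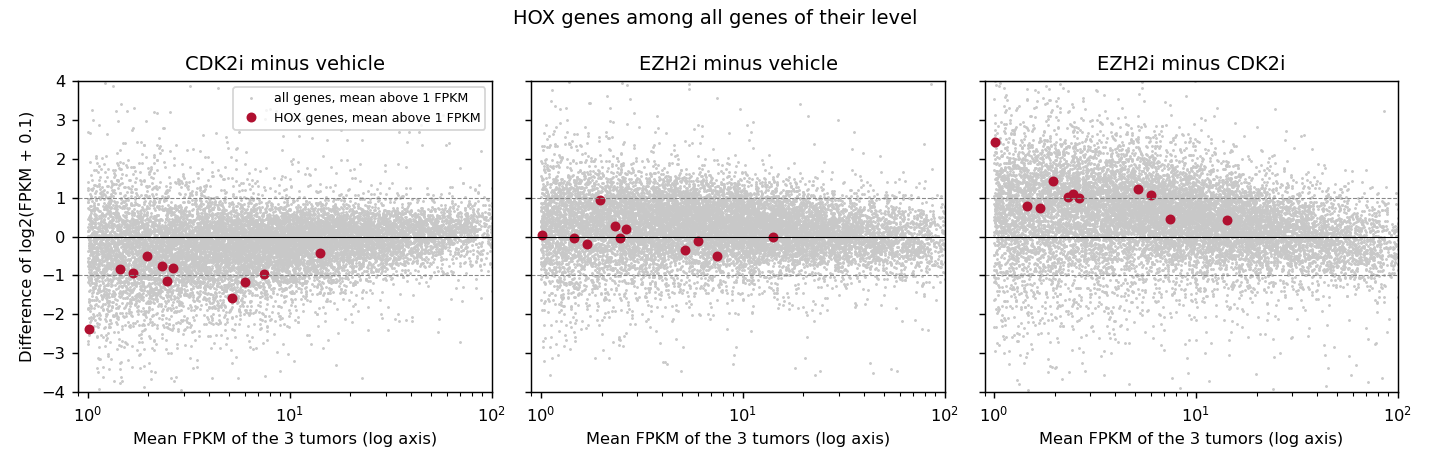
Difference of log2(FPKM + 0.1) in each comparison against the mean FPKM of the tumors (log axis) for all genes (grey) and HOX genes (red) with a mean above 1 FPKM, 1 library per tumor; genes beyond the axes are not drawn. All 11 HOX points lie below 0 in CDK2i minus vehicle, 7 below and 4 above 0 in EZH2i minus vehicle, and all above 0 in EZH2i minus CDK2i.

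Noncoding RNAs of the HOX clusters were measured too, 13 of 27 listed. HOTAIRM1, a long noncoding RNA of the HOXA cluster, had 9.11, 3.82 and 11.2 FPKM. HOTAIR, the RNA from the HOXC cluster reported to bind PRC2, had 4.30, 2.14 and 5.45 FPKM. HOXC-AS5, which the annotation calls HOXC13-AS, had 9.22, 6.23 and 9.36 FPKM. The 3 RNAs thus stood lowest in CDK2i, as did the coding genes beside them. HOXA-AS2 had 1.02, 0.106 and 0.349 FPKM, HOXC-AS3 had 2.75, 0.928 and 1.62 FPKM, and HOXC-AS1 had 6.74, 3.91 and 3.33 FPKM. HOXA-AS4 (HOXA10-AS), with 0.770, 0.765 and 2.16 FPKM, was the 1 RNA called higher in EZH2i, while HOXA-AS2 was called lower. There 6.73% of all genes were higher than in vehicle and 2.97% lower. In CDK2i, HOTAIRM1, HOXA-AS2 and HOXC-AS3 were called lower (3 of 13, beside 7.06% of all genes and 18.7% of those at 1 to 16 FPKM) and none higher (2.47% of all genes), with a median difference of −0.77. Against CDK2i, 3 of 13 were called higher in EZH2i, beside 13.4% of all genes and 34.3% of those at 1 to 16 FPKM. HOXC-AS2, at 1.68, 1.70 and 1.80 FPKM, hardly differed between tumors. Without strand in the counting, RNAs that overlap HOX exons share fragments with them, and 17 of the 33 HOX genes have such opposite-strand exon overlap.

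The PBX, MEIS and PKNOX genes encode the TALE cofactors with which HOX proteins bind DNA, and all 9 were measured. PBX2 was the most abundant with 29.0, 21.0 and 35.7 FPKM. In CDK2i 3 of 9 were called lower, where 7.06% of all genes and 18.7% of those at 1 to 16 FPKM were lower, PBX4 (3, 0.513 and 3.89 FPKM), MEIS2 (4.49, 1.90 and 4.69 FPKM) and MEIS1 (2.67, 1.22 and 3.20 FPKM). MEIS3 went the other way, with 11.9, 20.5 and 10.3 FPKM and a difference of 0.78 in CDK2i. In EZH2i, PBX3 was called higher, with 1.70 FPKM in vehicle and 4.17 in EZH2i. That was 1 of 9, beside 6.73% of all genes and 16.8% of those at 1 to 16 FPKM. Against CDK2i 3 of 9 were called higher in EZH2i, beside 13.4% of all genes and 34.3% of those at 1 to 16 FPKM. The median difference from vehicle of the 9 genes was −0.41 in CDK2i and 0.26 in EZH2i.

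**Figure D5:**
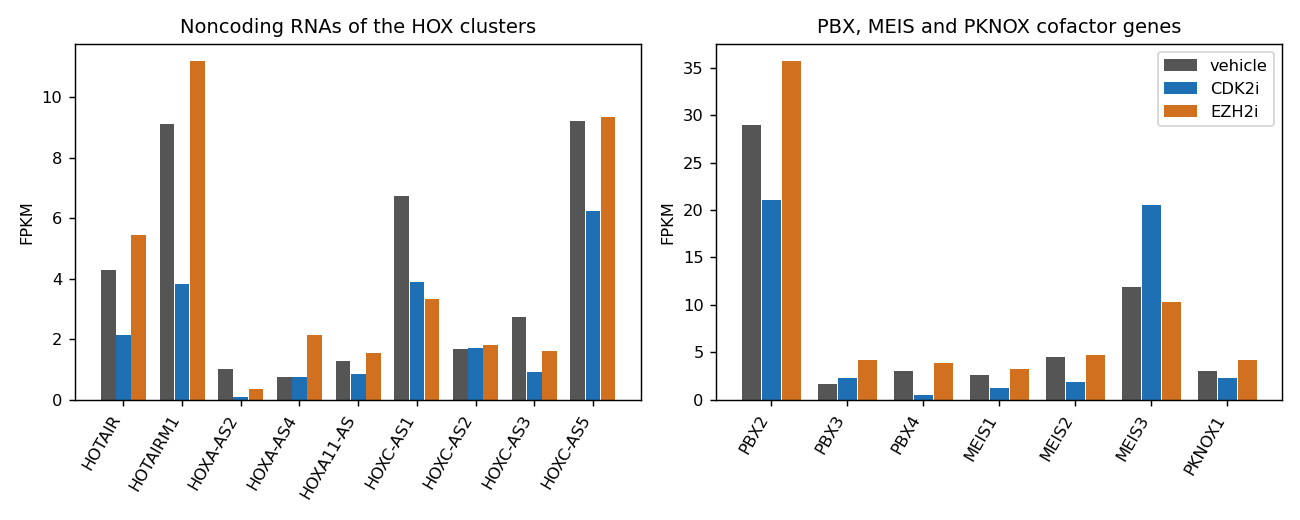
FPKM (bars, from 0) of the HOX cluster noncoding RNAs and the PBX, MEIS and PKNOX genes that passed 1 FPKM in at least 1 tumor, in the vehicle, CDK2i and EZH2i tumors, 1 library each. HOTAIRM1, HOTAIR, PBX4, MEIS1 and MEIS2 stand lowest in CDK2i, and MEIS3 highest.

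The Polycomb and trithorax genes keep HOX genes off or on. Against CDK2i, 5 of 11 PRC2 genes, 4 of 12 PRC1 genes and 6 of 12 trithorax, H3K27 demethylase and boundary genes were called higher in EZH2i and none lower, where 13.4% of all genes and 34.3% of those at 1 to 16 FPKM were higher. The calls against vehicle were fewer. In CDK2i 7.06% of all genes and 18.7% of those at 1 to 16 FPKM were lower than in vehicle. In EZH2i 6.73% and 16.8% were higher. Of 11 PRC2 genes, MTF2, an accessory subunit, was called lower in CDK2i (5.72, 2.52 and 9.78 FPKM) and none was called in EZH2i, with medians of −0.13 and 0.72. EZH2 itself had 7.69, 4.99 and 14.2 FPKM, SUZ12 had 5.08, 4.91 and 9.63 FPKM, and PHF1 had 41.2, 47.3 and 32.4 FPKM. The inhibitor acts on the enzyme's activity, so the EZH2 transcript is no check of the treatment. Of 12 PRC1 genes, CBX8 (11, 4.06 and 6.67 FPKM) and CBX2 (9.42, 3.67 and 11.2 FPKM), which read H3K27me3, were called lower in CDK2i. PHC3 (2.07, 2.33 and 5.93 FPKM) and BMI1 (6.29, 6.75 and 12.9 FPKM) were called higher in EZH2i, and the PRC1 medians were −0.33 and 0.08. Of 12 trithorax, H3K27 demethylase and boundary genes, CTCF, the insulator protein that partitions HOX clusters, was called lower in CDK2i (14.7, 5.37 and 24.4 FPKM). RBBP5, a subunit of MLL complexes, was called higher in EZH2i (4.42, 3.64 and 9.04 FPKM), and the medians of that list were −0.34 and 0.53.

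Among 9 upstream regulators, 3 were called in CDK2i, 2 higher and 1 lower, where 2.47% of all genes were higher and 7.06% lower. EGR2, which activates anterior HOX genes in hindbrain segments, had 5.06, 19.8 and 5.58 FPKM and was called higher in CDK2i. RARA, a retinoic acid receptor, was called lower in CDK2i (10.2, 2.73 and 10.0 FPKM). CYP26B1, which degrades retinoic acid, was called higher in EZH2i (6.61, 9.58 and 14.5 FPKM). That was 1 of 9, beside 6.73% of all genes and 16.8% of those at 1 to 16 FPKM. The medians of the list were 0.00 in CDK2i and 0.14 in EZH2i.

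The medians of the listed genes around the clusters differed by cluster in CDK2i, and they depend on which genes were listed. The median difference from vehicle was 0.30 for the 4 neighbours of HOXA, 0.24 for the 3 of HOXB, −0.40 for the 6 of HOXC and 0.10 for the 5 of HOXD, and 4 of the 6 beside HOXC were below 0. Genes of other lists that also lie within 1500000 bases of HOXC were not counted. Of these, KRT5, KRT6A, KRT18 and KRT8 differed by 1.17, 1.31, 0.51 and 0.24, and RARG by −0.34. Of the 18 listed neighbours, only NFE2, an erythroid transcription factor beside HOXC, was called lower in CDK2i (9.55, 1.48 and 3.70 FPKM). There 7.06% of all genes and 18.7% of those at 1 to 16 FPKM were lower. NFE2 was also called lower in EZH2i, beside 2.97% of all genes. The median difference of all 18 in CDK2i was 0.15, against −0.81 for the HOX genes, and SKAP2, next to HOXA, had 3.64, 4.99 and 5.94 FPKM. MTX2, next to HOXD, had 16.8, 22.8 and 21.3 FPKM, and SMUG1, next to HOXC, had 14.5, 7.96 and 13.3 FPKM. In EZH2i, SNX10 (1.69 FPKM in vehicle and 4.53 in EZH2i) and CBX5 (4.85 and 11 FPKM) were called higher. These were 2 of 18, beside 6.73% of all genes and 16.8% of those at 1 to 16 FPKM. The EZH2i median of the 18 was 0.27.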

How the data were processed

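Total RNA had been isolated from the tumors with the RNeasy Mini Kit and sequenced on Illumina libraries. The submitters' processing notes name hg19 (GRCh37), CASAVA and STAR. Versions, the annotation and the strandedness of counting are not given in the sources used here. The authors deposited log2 FPKM for 29689 symbols in 3 libraries, with −9 taken here as 0 FPKM. No column of other samples and no comparison of the authors was in the file. Gene positions, exon lengths and overlaps came from GENCODE 44 lifted to GRCh37, to which 20194 symbols matched, 1481 through an older name, including all 33 HOX genes. Depth was found from low genes with 1 transcript, of which 79.9% to 81.4% fell on whole fragments within 1.5%. Fragment numbers, exact Poisson intervals and ratio intervals (exact binomial, 95%) follow from that depth, and cover counting error only. Differences were taken on log2(FPKM + 0.1), which understates changes of low genes. With 1 library per condition, the limma test of the study was replaced by its fold of 2 and its minimum of log2 FPKM 3, and by a second minimum of 1 FPKM.

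Alternatives were pseudocounts of 1 and 0.01, a minimum of 0.5 FPKM or none, folds of 1.5 and 3, 3 other scalings, and removal of a GC and length trend (polynomial of degree 3, fitted on 11866 genes). The calling steps were run on simulated data with changes well above a fold of 2 and no counting error. That run says nothing of calls near the fold threshold or from few fragments. Values of 1 HOX gene and of 1 upstream regulator are not reported here singly, though both are in the sums and counts. HOX genes above 1 FPKM in any tumor were named with all values, the others by range and count. From each list, members above 1 FPKM and the largest difference each way could be named. The members and lists were chosen with earlier results of these data known. The lists were HOX noncoding RNAs, HOX cluster microRNAs (0 of 14 measured), TALE cofactors, PRC2, PRC1, trithorax and boundary genes, upstream regulators, cluster neighbours (within 1500000 bases), and epithelial, fibroblast, endothelial and macrophage markers. Python 3.11.15, numpy 2.4.6, pandas 2.3.3, scipy 1.17.1 and matplotlib 3.10.9 were used.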

Additional observations from a re-analysis of the deposited data

How the results depend on the processing

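The other scalings shifted the log2 values by 0.20 (median gene), 0.15 (summed FPKM) and 0.17 (upper quartile) in CDK2i and by −0.25, 0.24 and −0.22 in EZH2i, and the GC and length removal centres the genes as well. The number of HOX genes lower in CDK2i than in vehicle, 5, was 2 with a pseudocount of 1, 12 with no minimum, 10 at a fold of 1.5 (1 past the study thresholds), 2 at a fold of 3, 3 centred on the median gene and 3 with the GC and length trend removed. In EZH2i against vehicle, 0 lower became 2 with no minimum, and 0 higher became 2 with no minimum, 2 with a minimum of 0.5 FPKM, 1 at a fold of 1.5 and 2 at equal summed FPKM. In EZH2i against CDK2i, 7 higher became 1 with a pseudocount of 1, 12 with no minimum, 2 at a fold of 3, 3 centred on the median gene, 3 at equal upper quartile and 4 with the trend removed. The same count was 8 with a pseudocount of 0.01, 9 with a minimum of 0.5 FPKM, 10 at a fold of 1.5 and 9 at equal summed FPKM, where 1 passed the study thresholds. The median difference there, 0.58, was 0.19 with a pseudocount of 1, 1.25 with 0.01 and 0.39 centred on the median gene. For median gene, summed FPKM and upper quartile, the HOXA ratio of EZH2i to vehicle was 0.942, 1.33 and 0.964 and the HOXC ratio 0.773, 1.09 and 0.791, and the HOXC ratio of CDK2i to vehicle was 0.632, 0.609 and 0.619. Centred on the median gene and at equal upper quartile, EZH2i to CDK2i was 1.99 and 2.08 for HOXA and 1.22 and 1.28 for HOXC. Single values were recomputed only for the HOX genes called in CDK2i against vehicle and in EZH2i against CDK2i. Of these 72 values, 53 moved by less than the counting interval and 19 by more. None changed sign, but these values were already past a fold of 2, so such settings could hardly turn them. The causes were not tested. No paired analysis was possible because each condition had 1 library, and for the same reason no replicate could be left out.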
